A study of Mus musculus with 6 samples.

Results

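Shear stress responsive endothelial genes are taken here as 9 genes whose products sense blood flow, relay it or carry its effect on vessel tone and permeability, namely Klf2, Klf4, Nos3, S1pr1, Piezo1, Edn1, Adm, Cyp1b1 and Gpr4. They were chosen by gene symbol, and all 9 were found among the 23207 symbols of the count table and among the 19741 genes tested. RNA was sequenced from spleen endothelial cells of 6 Apoe-knockout mice, with 1 library per mouse. Mice 1603, 1604 and 1607 had received an antisense oligonucleotide (ASO), a synthetic strand that binds a matching RNA and leads to its loss, against Mlkl. They had been treated for 8 weeks while on a high cholesterol diet. Mice 1601, 1602 and 1608 had received a control ASO and the same diet for the same time. All 6 mice therefore lacked apolipoprotein E and were fed cholesterol, so no group stands for normal blood lipids. MLKL is the pseudokinase that breaks open the plasma membrane at the end of necroptosis. The age and sex of the mice, the route of the ASO and the way the endothelial cells were isolated are, in the sources used here, not given.

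Blood flow drags on the endothelial surface, and endothelial cells turn this shear stress into gene expression. Steady laminar flow activates a kinase cascade of MEKK3, MEK5 and ERK5, and ERK5 activates MEF2 factors, which switch on the genes of the zinc finger factors KLF2 and KLF4. In arteries these factors raise the nitric oxide synthase gene NOS3 and hold down endothelin-1 and adhesion molecules, whereas disturbed flow does the reverse. The spleen is unusual in that much of its blood leaves the vessels and filters slowly back through the slits of venous sinuses. Several of the 9 genes are also used outside endothelium: lymphocytes express Klf2 and S1pr1, and macrophages express Piezo1.

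The libraries held 59988846 to 87776706 estimated counts. Mlkl, the target of the ASO, measured 7.52, 5.80 and 3.73 CPM (estimated counts scaled to a common library total, with the TMM method between libraries) in MLKL ASO mice 1603, 1604 and 1607, against 30.1, 31.5 and 38.7 CPM in control ASO mice 1601, 1602 and 1608, so all 3 MLKL ASO mice lay below all 3 control ASO mice (log2 fold change -2.56 ± 0.27, SE; adjusted p in edgeR 0.0666, in DESeq2 1.20e-15). The endothelial label was checked with 15 pan-endothelial marker genes, all of them detected in every library, whose mean log2 CPM was 7.35 to 7.40 in MLKL ASO mice and 6.96, 7.43 and 7.96 in control ASO mice 1601, 1602 and 1608. RNA of other spleen cells was present too. The 8 erythroid markers summed to 39832 to 90406 CPM in MLKL ASO and 26442 to 74051 CPM in control ASO mice. The 15 pan-endothelial genes summed to 3958 to 4322 CPM and 3083 to 5936 CPM in these groups. All 8 erythroid, 8 megakaryocyte and 8 neutrophil markers lay above 0 in log2 fold change, with list levels that overlapped between the groups. All 9 B cell markers lay below 0, also with overlapping list levels. The T cell list, with all 11 markers below 0 in log2 fold change, was at a mean log2 CPM of 3.77 to 4.09 in MLKL ASO mice and 4.45 to 5.69 in control ASO mice, its summed level being 184 to 226 CPM and 284 to 687 CPM in these groups, with none of its markers at 0. The control ASO mice thus differed in makeup, with mouse 1601 lowest in endothelial and highest in T cell and B cell genes, and mouse 1608 highest in endothelial genes.

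None of the 9 genes passed the threshold between the groups. By the quasi-likelihood test of edgeR, with p-values adjusted over all genes tested and a threshold of 0.05, 0 of 9 were called, where 0.0101% of all genes were called. The same test did not call Mlkl, the target of the ASO (log2 fold change -2.56, adjusted p in edgeR 0.0666). A count of 0 in edgeR, here and for the related lists below, therefore does not show that genes were unchanged. At an unadjusted p under 0.05 there were 2 of 9, both lower in MLKL ASO mice, where 7.13% of all genes were lower and 4.86% higher at that level. The counts of related lists given below at that level stand beside the same shares. DESeq2 called 0 of 9 (2.61% of all genes), limma-voom with sample weights 0 of 9 (0.122%), and the authors' deposited table also has 0 of 9 past its adjusted threshold (1.82% of its genes). The fold change was above 0 in 4 of the 9 genes (48.0% of all genes) and below 0 in 5 (52.0% of all genes), and its median on the log2 scale was -0.03, as against -0.02 over all genes tested. The groups did not overlap in 2 of 9 genes, where 18.7% of all genes showed no overlap in either direction. These 2 were Edn1 and Gpr4, both with every MLKL ASO mouse below every control ASO mouse. The groups differ in 3 mice each, so an exact two-sided permutation test cannot give a p below 0.1.

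**Figure D1:**
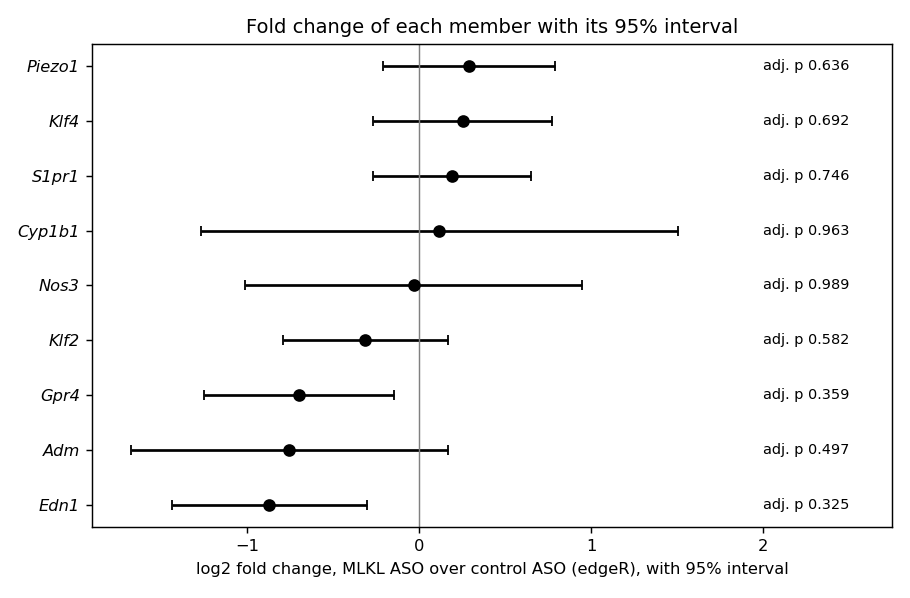
Log2 fold change of each gene in MLKL ASO over control ASO mice (horizontal axis, edgeR, n = 3 mice each), with bars for the 95% interval and the adjusted p at the right. The intervals of Edn1 and Gpr4 lie below 0 and the other 7 include it, and adjusted p-values run from 0.325 to 0.989.

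Edn1 encodes the precursor of endothelin-1, the strongest vasoconstrictor peptide that endothelium makes. It measured 13.0, 16.9 and 14.2 CPM in MLKL ASO mice 1603, 1604 and 1607, against 18.4, 34.2 and 28.2 CPM in control ASO mice 1601, 1602 and 1608. Every MLKL ASO mouse lay below every control ASO mouse, and the gap was narrow only between mouse 1604 and mouse 1601. The means were 14.7 ± 2.0 CPM in MLKL ASO and 26.9 ± 7.98 CPM in control ASO mice (SD, n = 3 each). This is a log2 fold change of -0.87 ± 0.24 (SE), with a 95% interval from -1.44 to -0.31 and an adjusted p of 0.325 in edgeR (unadjusted p = 0.00790, rank 480 of 19741 genes). DESeq2 put it just above the threshold (adjusted p = 0.0505), and the authors' deposited table gives a log2 fold change of -0.87 with an adjusted p of 0.0658. The exact two-sided permutation test gave p = 0.1, the smallest possible. Leaving out any mouse kept the estimate between -1.08 and -0.66.

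Gpr4 encodes a G protein-coupled receptor of the endothelial surface that is activated by protons and so responds to acid surroundings. It was scarce, with 6.32, 8.08 and 9.59 CPM in MLKL ASO mice 1603, 1604 and 1607, against 11.1, 11.6 and 16.3 CPM in control ASO mice 1601, 1602 and 1608. Again the groups did not overlap, and mouse 1608 was the highest. In edgeR the log2 fold change was -0.70 ± 0.24 (SE), with a 95% interval from -1.25 to -0.15 (adjusted p = 0.359, unadjusted p = 0.0199; exact two-sided permutation p = 0.1). Its values rested on 390 to 1127 counts per library. Gpr132, a related receptor that is mainly found on leukocytes, measured 15.8, 19.5 and 23.1 CPM in MLKL ASO mice and 54.7, 30.1 and 26.9 CPM in control ASO mice 1601, 1602 and 1608. The T cell markers lay lower in the same mice, and their part in the values of Gpr132 was not tested.

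**Figure D2:**
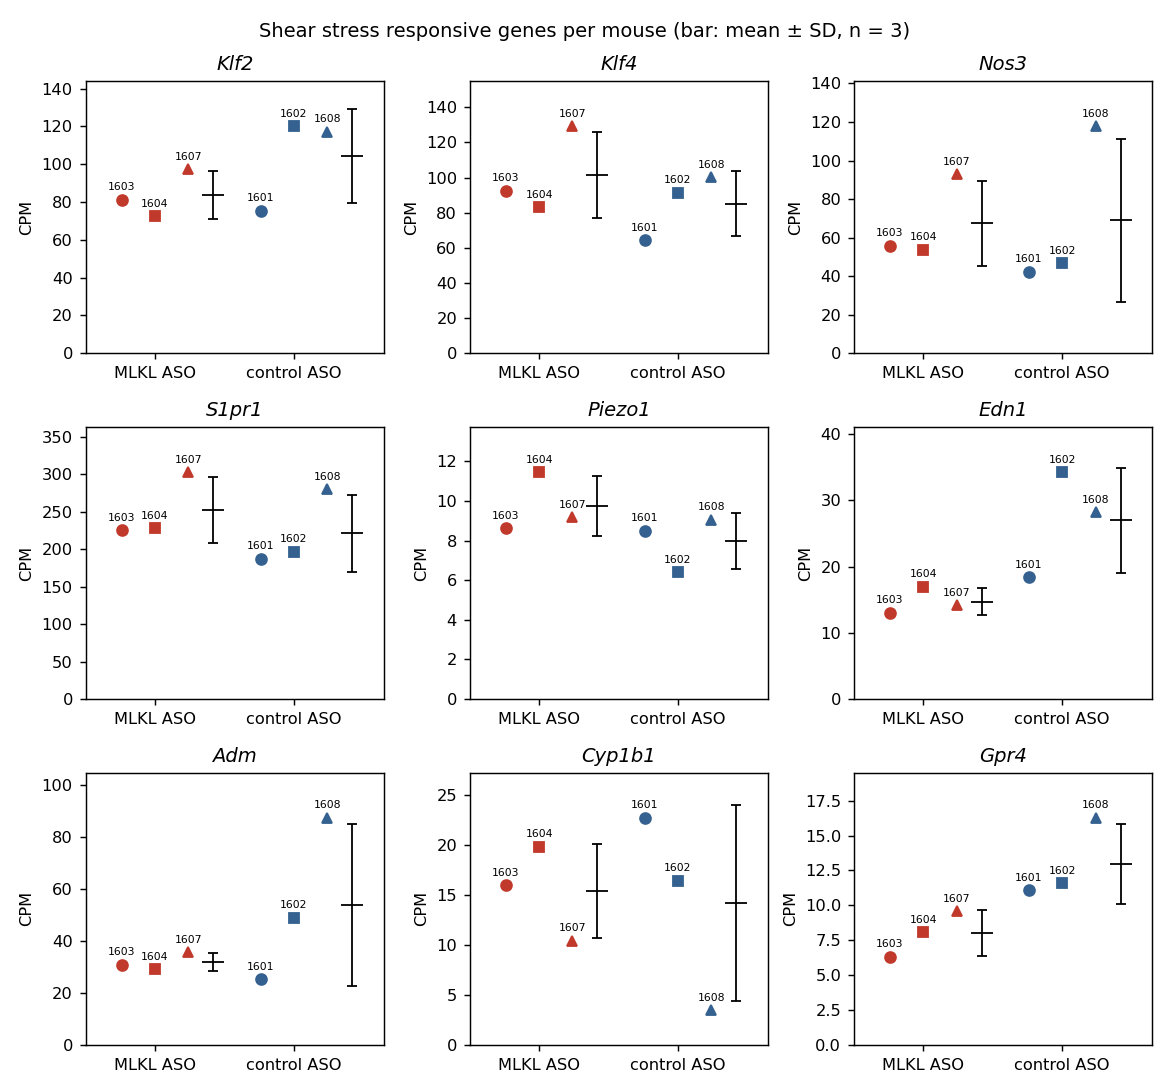
CPM of each gene (vertical axis, from 0) in MLKL ASO mice (red, left) and control ASO mice (blue, right), with the mouse number beside each point and the mean ± SD of 3 mice at the right of each group. Edn1 and Gpr4 are the 2 genes whose groups do not overlap. Mouse 1608 lies at an extreme for Nos3, Adm, Cyp1b1 and Gpr4, and mouse 1601 for Klf4, Nos3, S1pr1, Adm and Cyp1b1.

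The stretches of 250 bases before the start of transcription are shown for the 2 genes whose groups separated and for Klf2, the flow-induced factor that is known to repress endothelin-1. They come from RefSeq on the mouse build GRCm38.p6, whose promoter table held 7 of the 9 genes. Capitals mark matches on either strand to CACCC, the core bound by KLF factors, and to CTA, any 4 bases, then TAG. The latter is a loose form of the core bound by MEF2. The CACCC core appears as GGGTG where it lies on the other strand.
Klf2, chr8:72318812-72319061, plus strand: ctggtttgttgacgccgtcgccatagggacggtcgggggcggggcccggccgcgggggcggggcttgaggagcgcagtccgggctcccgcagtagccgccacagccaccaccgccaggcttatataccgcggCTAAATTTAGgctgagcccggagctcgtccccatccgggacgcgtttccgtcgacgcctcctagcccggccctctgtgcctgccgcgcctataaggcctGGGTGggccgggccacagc
Edn1, chr13:42301226-42301475, plus strand: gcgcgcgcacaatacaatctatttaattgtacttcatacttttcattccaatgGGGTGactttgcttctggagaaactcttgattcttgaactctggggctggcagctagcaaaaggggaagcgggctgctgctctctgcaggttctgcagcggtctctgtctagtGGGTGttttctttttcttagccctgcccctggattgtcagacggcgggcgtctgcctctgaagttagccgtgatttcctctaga
Gpr4, chr7:19212288-19212537, plus strand: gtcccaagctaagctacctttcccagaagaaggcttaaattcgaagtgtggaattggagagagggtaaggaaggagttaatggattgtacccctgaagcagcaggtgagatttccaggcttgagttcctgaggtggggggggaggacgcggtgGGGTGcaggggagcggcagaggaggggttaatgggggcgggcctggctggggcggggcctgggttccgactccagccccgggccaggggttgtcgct
The loose MEF2 pattern was present in the Klf2 promoter, at positions -118 to -109 before the start. It was found in 1 of the 7 members searched, where 3.20% of 32851 promoter windows of this length hold it. The CACCC core lay in 5 of 7 members, once each in Klf2, Gpr4 and Piezo1 and at 2 places each in Edn1 and Cyp1b1, where 52.0% of all windows hold it. The AP-1 core TGANTCA was found in 0 of 7 (6.75% of all windows), the GATA core AGATAA in 0 of 7 (9.99%) and the hypoxia response core ACGTG in 1 of 7 (16.6%), which was Klf4. None of these motifs overlapped another kind in these windows. A match of letters describes the sequence and shows no binding.

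Klf2 and Klf4, the transcription factors at the centre of the flow response, differed by less than the spread between mice. Klf2 measured 81.2, 72.6 and 97.4 CPM in MLKL ASO mice 1603, 1604 and 1607, against 75.5, 120.0 and 117 CPM in control ASO mice 1601, 1602 and 1608. Its groups overlapped because control ASO mouse 1601 lay within the MLKL ASO range. Its log2 fold change was -0.31 ± 0.20 (SE), with a 95% interval from -0.79 to 0.16 (edgeR adjusted p = 0.582), so the data leave room for a level between 0.577 and 1.12 times that of control ASO mice. Klf4 measured 92.5, 83.1 and 129 CPM in MLKL ASO mice, against 64.4, 91.2 and 100.1 CPM in control ASO mice 1601, 1602 and 1608. The estimate for Klf4 had the opposite sign, with a log2 fold change of 0.25 ± 0.22 (SE) and a 95% interval from -0.27 to 0.77 (edgeR adjusted p = 0.692). Without mouse 1601 the estimate for Klf2 was -0.50, with a 95% interval from -0.85 to -0.15 (edgeR adjusted p = 0.249). The estimate for Klf4 was then 0.09.

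The cascade that leads to both factors held 11 genes, of which 10 had a log2 fold change below 0 and 0 passed the threshold in edgeR (1 at an unadjusted p under 0.05, lower). Its median was -0.21 (-0.34 without mouse 1601), beside -0.02 over all genes tested, of which 52.0% lay below 0. The gene in question was Hdac5, a histone deacetylase that binds MEF2 and represses Klf2 until flow drives it out of the nucleus. Hdac5 measured 15.5, 17.1 and 16.2 CPM in MLKL ASO mice and 22.2, 22.7 and 29.1 CPM in control ASO mice 1601, 1602 and 1608, a log2 fold change of -0.60 (edgeR adjusted p = 0.322, DESeq2 adjusted p = 0.0318). The kinase genes Map3k3, which encodes MEKK3, and Mapk7, which encodes ERK5, had log2 fold changes of -0.04 ± 0.16 and -0.21 ± 0.32 (SE). Mef2c, a MEF2 gene of endothelium and B cells, gave -0.11 ± 0.13 (SE). Of 13 other Klf genes tested, 7 lay above 0 and 6 below, 0 passed in edgeR and 0 reached an unadjusted p under 0.05. Klf6, an injury-responsive member of the family, had a log2 fold change of -0.02 ± 0.14 (SE).

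Nos3, the endothelial nitric oxide synthase that relaxes vessels, showed no difference beyond a wide spread. It measured 55.7, 53.6 and 92.8 CPM in MLKL ASO mice 1603, 1604 and 1607, against 42.3, 46.8 and 118 CPM in control ASO mice 1601, 1602 and 1608. A high mouse stood in each group, mouse 1607 with the MLKL ASO and mouse 1608 with the control ASO. Its log2 fold change was -0.03 ± 0.42 (SE), with a 95% interval from -1.01 to 0.95 (edgeR adjusted p = 0.989), so an effect of about 1 log2 unit either way is compatible with these mice. The sign of this estimate was not stable: leaving out mouse 1608 gave 0.59, mouse 1603 gave 0.08 and mouse 1604 gave 0.11. Of 17 other genes of nitric oxide synthesis and signalling, 9 lay above 0 and 8 below, and 0 passed in edgeR (unadjusted p under 0.05 for 1 higher and 1 lower).

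S1pr1, the receptor for sphingosine 1-phosphate that seals endothelial junctions and also guides lymphocytes out of lymphoid organs, measured 225, 228 and 303 CPM in MLKL ASO mice 1603, 1604 and 1607, against 187, 197 and 280.0 CPM in control ASO mice 1601, 1602 and 1608. The groups overlapped through mouse 1608. Its log2 fold change was 0.19 ± 0.20 (SE), with a 95% interval from -0.27 to 0.65 (edgeR adjusted p = 0.746). With the level of T and B cell markers as a covariate in edgeR the estimate was -0.064 for S1pr1, -0.068 for Klf4 and -0.71 for Klf2, the last with a 95% interval from -1.31 to -0.11. It was -1.71 for Adm (95% interval -2.42 to -1.01), -1.39 for Edn1 (-2.07 to -0.72) and -0.94 for Gpr4 (-1.74 to -0.13). For Nos3 it was -0.67, for Cyp1b1 1.58 and for Piezo1 0.29. The intervals of Nos3, Cyp1b1, Piezo1, S1pr1 and Klf4 included 0. None of the 9 passed the threshold with this covariate, with adjusted p-values in edgeR from 0.183 to 0.945. The T cell markers in this covariate themselves separate the groups, as their levels above show. The part of these markers in the estimates therefore cannot be told apart from that of the ASO. Of the 9 other genes of the sphingosine 1-phosphate axis tested, 7 lay below 0 and 2 above, and 0 passed in edgeR (1 at an unadjusted p under 0.05). That gene was S1pr4, a receptor of lymphoid and myeloid cells, at 17.0, 17.0 and 20.1 CPM in MLKL ASO mice and 35.5, 22.9 and 32.4 CPM in control ASO mice 1601, 1602 and 1608 (edgeR adjusted p = 0.319, DESeq2 adjusted p = 0.0426). Spns2, the transporter by which endothelium releases sphingosine 1-phosphate, had a log2 fold change of -0.01 ± 0.24 (SE).

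Piezo1 encodes the mechanically gated cation channel that opens when the membrane is stretched or sheared. It measured 8.62, 11.5 and 9.18 CPM in MLKL ASO mice 1603, 1604 and 1607, against 8.51, 6.40 and 9.06 CPM in control ASO mice 1601, 1602 and 1608. The groups overlapped only in that control ASO mouse 1608 lay above MLKL ASO mouse 1603. Its log2 fold change of 0.29 ± 0.21 (SE), with a 95% interval from -0.21 to 0.79 (edgeR adjusted p = 0.636), was the highest of the 9 genes, and the authors' deposited table gives 0.53 with an adjusted p of 0.574. Among 20 other flow sensors and transducers, 13 lay below 0 and 7 above, with a median of -0.05 (0.10 without mouse 1608). In edgeR 0 passed, and 2 were lower at an unadjusted p under 0.05, as were 7.13% of all genes. These 2 were Sdc4, the syndecan of focal adhesions, at a log2 fold change of -0.53, and Ccm2, which restrains MEKK3, at -0.49. Of 3 related or partner genes of the channel tested, 2 lay above 0 and 1 below, 0 passed in edgeR and 0 reached an unadjusted p under 0.05.

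Adm encodes the precursor of adrenomedullin, a vasodilator peptide that also stabilises the endothelial barrier. It measured 30.8, 29.1 and 35.7 CPM in MLKL ASO mice 1603, 1604 and 1607, against 25.4, 48.9 and 87.4 CPM in control ASO mice 1601, 1602 and 1608. The MLKL ASO mice were tightly grouped, and the control ASO mice lay on both sides of them. This gives a log2 fold change of -0.76 ± 0.39 (SE), with a 95% interval from -1.68 to 0.16 (edgeR adjusted p = 0.497). It depended on the control ASO mice, being -0.22 without mouse 1608 and -1.09 without mouse 1601 (95% interval -1.68 to -0.50, edgeR adjusted p = 0.194). With the level of the pan-endothelial markers as a covariate it was -0.46 (95% interval -0.73 to -0.18, edgeR adjusted p = 0.122). Of 7 other genes of the adrenomedullin axis tested, 3 lay above 0 and 4 below, and 0 passed in edgeR (1 at an unadjusted p under 0.05, which was Calca). Calcrl, the receptor for adrenomedullin, and Ramp2, the partner that gives it its specificity, had log2 fold changes of 0.06 ± 0.32 and -0.07 ± 0.22 (SE). Calca, the calcitonin gene, measured 2.04, 0.723 and 1.06 CPM in MLKL ASO mice and 6.29, 8.81 and 3.06 CPM in control ASO mice 1601, 1602 and 1608 (edgeR adjusted p = 0.281, DESeq2 adjusted p = 0.00141).

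Cyp1b1, a cytochrome P450 of steroid and fatty acid oxidation that laminar flow induces in cultured human endothelium, had the widest interval of the 9. It measured 15.9, 19.8 and 10.4 CPM in MLKL ASO mice 1603, 1604 and 1607, against 22.7, 16.4 and 3.48 CPM in control ASO mice 1601, 1602 and 1608. Mouse 1608 was far below all other mice and mouse 1601 the highest. Its log2 fold change was 0.12 ± 0.59 (SE), with a 95% interval from -1.27 to 1.5 (edgeR adjusted p = 0.963), and it was -0.35 without mouse 1608 and -0.11 without mouse 1604. The 9 mural cell and fibroblast markers were at a mean log2 CPM of 3.09 to 3.54 in MLKL ASO mice and at 3.85, 3.64 and 1.84 in control ASO mice 1601, 1602 and 1608, so mouse 1608 was lowest and mouse 1601 highest in these as well. Summed, they made 108 to 135 CPM in MLKL ASO mice and 48.6 to 174 CPM in control ASO mice, and none was at 0. Fibroblasts also express Cyp1b1, and the part of such cells in its values was not tested. In a bulk library, fewer cells of a type and less RNA per cell cannot be told apart. Of 6 genes tested from the aryl hydrocarbon receptor pathway, which controls Cyp1b1, 4 lay below 0 and 2 above, 0 passed in edgeR and 0 reached an unadjusted p under 0.05.

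Since endothelial RNA differed between the control ASO libraries, each gene was also set against the mean log2 CPM of the 15 pan-endothelial genes in its own library. Relative to these, Edn1 lay at -3.69, -3.26 and -3.55 on the log2 scale in MLKL ASO mice 1603, 1604 and 1607, against -2.75, -2.33 and -3.14 in control ASO mice 1601, 1602 and 1608. Gpr4 lay at -4.74, -4.33 and -4.11 in MLKL ASO mice, against -3.48, -3.89 and -3.93 in control ASO mice 1601, 1602 and 1608. Both genes thus remained lower in every MLKL ASO mouse, by a mean of -0.76 for Edn1 and -0.63 for Gpr4 (exact two-sided permutation p = 0.1 each), where 3.71% of all genes were lower and 6.02% higher without overlap on this scale. For the other 7 genes the groups overlapped. Relative to 5 sinusoidal markers instead, the groups of 4 genes did not overlap, with Klf2 at -0.69 and Adm at -0.98 beside Edn1 at -1.23 and Gpr4 at -1.09, all lower in MLKL ASO mice. On this scale 20.8% of all genes were lower and 1.43% higher without overlap.

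**Figure D3:**
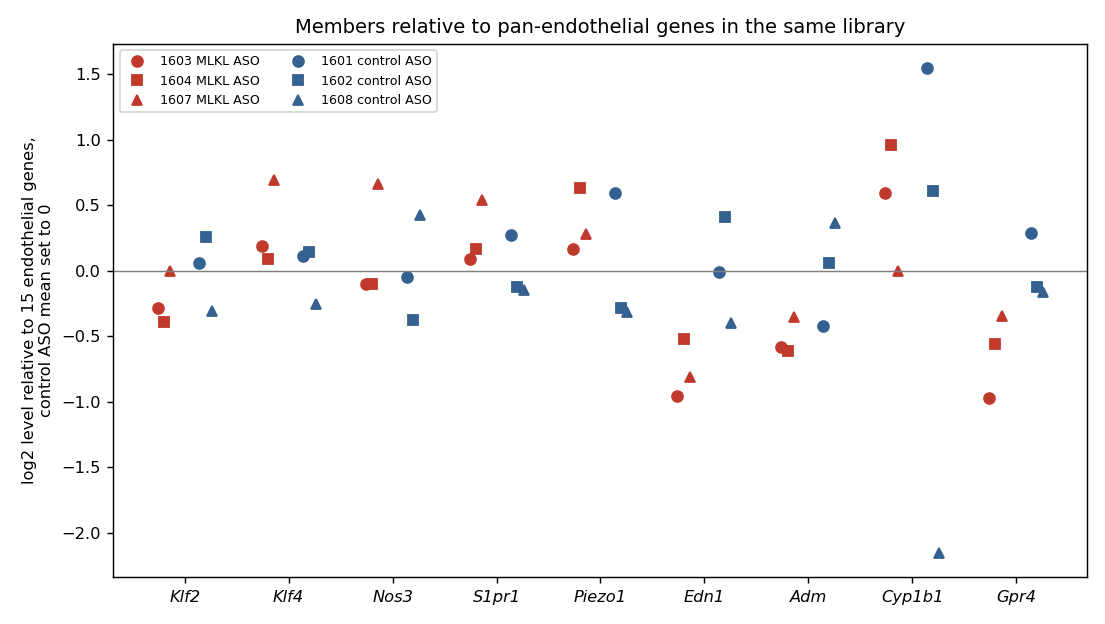
Log2 level of each gene minus the mean log2 level of 15 pan-endothelial genes in the same library, with the control ASO mean set to 0 (vertical axis), for MLKL ASO mice (red, left of each pair) and control ASO mice (blue, right). Red and blue points separate only for Edn1 and Gpr4, whose means differ by -0.76 and -0.63.

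Compared per length of the longest coding transcript in the GENCODE M21 annotation, the 9 genes spanned nearly 2 orders of magnitude. Over the 6 libraries S1pr1 was highest with 77.7 ± 15 CPM per kb (SD), followed by Klf2 with 50.9 ± 11.3, Adm with 30.9 ± 16.8, Klf4 with 30.8 ± 7.05 and Nos3 with 16.5 ± 7.30 CPM per kb. Edn1 followed with 9.74 ± 3.96, Gpr4 with 3.64 ± 1.19, Cyp1b1 with 2.88 ± 1.34 and Piezo1 with 1.08 ± 0.197 CPM per kb. Of the 8 pairs of neighbours in this order, the ranges of Edn1 and Gpr4 alone did not overlap. Klf2 exceeded Adm and Klf4 exceeded Nos3 in 6 of 6 libraries, while Adm and Klf4 (Adm higher in 2 of 6) and Gpr4 and Cyp1b1 (Gpr4 higher in 3 of 6) had no fixed order. The place of Klf4 depends on the transcript: with its shortest coding transcript it would be at 179 CPM per kb, the highest of all.

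**Figure D4:**
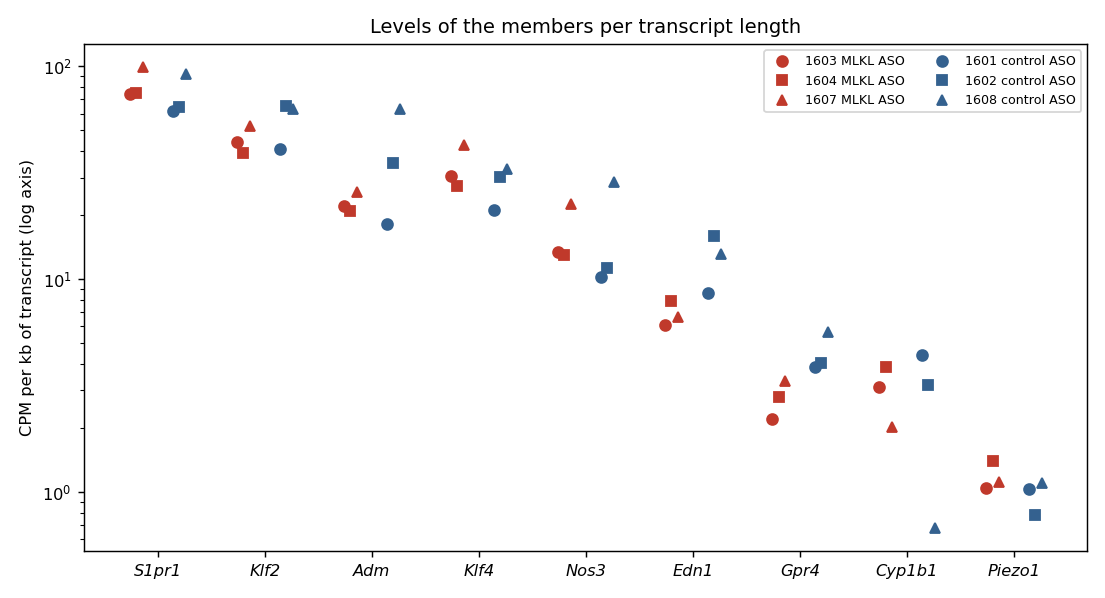
CPM per kb of the longest coding transcript (vertical log axis) of the 9 genes in order of their mean, for MLKL ASO mice (red, left of each pair) and control ASO mice (blue, right). Levels run from a mean of 77.7 for S1pr1 to 1.08 for Piezo1, and the points of Edn1 and Gpr4 occupy separate ranges.

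Among themselves the 9 genes did not move as a unit across the 6 libraries. Likeness was measured as the root mean square difference of log2 CPM after centring each gene on its own mean, so that 0 means the same profile. Klf4 and S1pr1 were the closest pair of members, at 0.154, and Klf2 and Klf4 stood at 0.288. Of all genes with at least 10 CPM and a spread of at least 0.5 times that of the member, the closest to Klf2 were Zscan26, Hspg2 and Fam193b, at 0.0671 to 0.0837, and the closest to Klf4 were Ptpn9, Fbxw7 and Dvl3, at 0.0425 to 0.0488. Those closest to Edn1 were Prickle1, Arrdc2 and Ube2e2, at 0.103 to 0.162. Adamts1, a metalloprotease gene, was closest to Adm at 0.165. The genes closest to Cyp1b1 were Lhfp, Bgn and Col1a2, at 0.147 to 0.160. The last 2 encode the matrix proteins biglycan and collagen. In 8 of the 9 members the SD of log2 CPM was larger in control ASO than in MLKL ASO mice, as it was in 69.4% of all genes tested.

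The gene nearest to Gpr4 was Hspa1a, an inducible heat shock chaperone, at a root mean square difference of 0.0426, followed by Bambi at 0.0736 and Irf2bpl at 0.0820. Hspa1a belongs to a list of 18 genes that cells induce within minutes of a stimulus or of tissue dissociation, all 18 of which had a log2 fold change below 0 (median -0.68). The mean log2 CPM of this list was 6.96, 7.31 and 7.55 in MLKL ASO mice 1603, 1604 and 1607, against 7.80, 7.89 and 8.25 in control ASO mice 1601, 1602 and 1608, which is the order of the libraries in Gpr4 as well. With the level of this list as a covariate in edgeR, the log2 fold change of Gpr4 was 0.09 with a 95% interval of -0.62 to 0.79 and that of Edn1 -0.59 with an interval of -1.76 to 0.58. The list itself separates the groups, so these intervals are wide and the part of the list in either gene cannot be told apart from that of the ASO.

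Genes that flow is known to raise or hold down downstream of Klf2 and Klf4 were mixed. Of 17 other genes induced by laminar flow, 8 lay above 0 and 9 below, with a median of 0.00 (0.19 without mouse 1601), and 0 passed in edgeR (1 lower at an unadjusted p under 0.05). Thbd, the anticoagulant receptor thrombomodulin and a target of Klf2, measured 140, 146 and 246 CPM in MLKL ASO mice and 122, 173 and 303 CPM in control ASO mice 1601, 1602 and 1608, with a high mouse in each group as for Nos3. The arterial connexin gene Gja4 was the gene with the smallest p, at a log2 fold change of -0.69 (edgeR adjusted p = 0.269, DESeq2 adjusted p = 0.0123). Of 17 genes raised by disturbed flow or held down by Klf2, 11 lay below 0 and 6 above, with a median of -0.33 (-0.14 without mouse 1608), and 0 passed in edgeR (unadjusted p under 0.05 for 2 higher and 1 lower). Pdgfb, a growth factor for mural cells, measured 8.88, 8.65 and 8.95 CPM in MLKL ASO mice and 14.4, 17.7 and 16.1 CPM in control ASO mice 1601, 1602 and 1608. Its log2 fold change was -0.87 ± 0.15 (SE, edgeR adjusted p = 0.192, DESeq2 adjusted p = 9.56e-06). The authors' deposited table gives -0.78 for Pdgfb, with an adjusted p of 0.00139. The 2 higher genes were Thbs1, the matrix glycoprotein thrombospondin-1, and Angpt2, a Tie2 ligand that loosens vessels. Thbs1 measured 74.9, 145 and 107 CPM in MLKL ASO mice and 63.7, 68.3 and 58.2 CPM in control ASO mice 1601, 1602 and 1608, without overlap and with a log2 fold change of 0.78 ± 0.23 (SE, adjusted p in edgeR = 0.339). Angpt2, named after its values were seen, overlapped between the groups and had a log2 fold change of 0.87 ± 0.34 (SE, adjusted p in edgeR = 0.389). Vcam1, an adhesion molecule, had a log2 fold change of -0.42 ± 0.22 (SE, adjusted p in edgeR = 0.512). The endothelin axis held 6 other genes tested, 3 above 0 and 3 below, of which 0 passed in edgeR (unadjusted p under 0.05 for 1 higher and 1 lower). The higher one was Kel, a peptidase of red cells, and the erythroid markers also lay above 0 in 8 of 8, which was not tested further. Ece1, the enzyme that cuts endothelin-1 from its precursor, had a log2 fold change of -0.51 (edgeR adjusted p = 0.369). It measured 93.2, 88.5 and 93.3 in MLKL ASO mice and 94.4, 143 and 155 CPM in control ASO mice 1601, 1602 and 1608. Its groups did not overlap, but mouse 1601 lay just above the MLKL ASO mice, and 18.7% of all genes showed no overlap. Ednrb, the endothelial receptor for endothelin, had a log2 fold change of 0.28 ± 0.32 (SE).

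**Figure D5:**
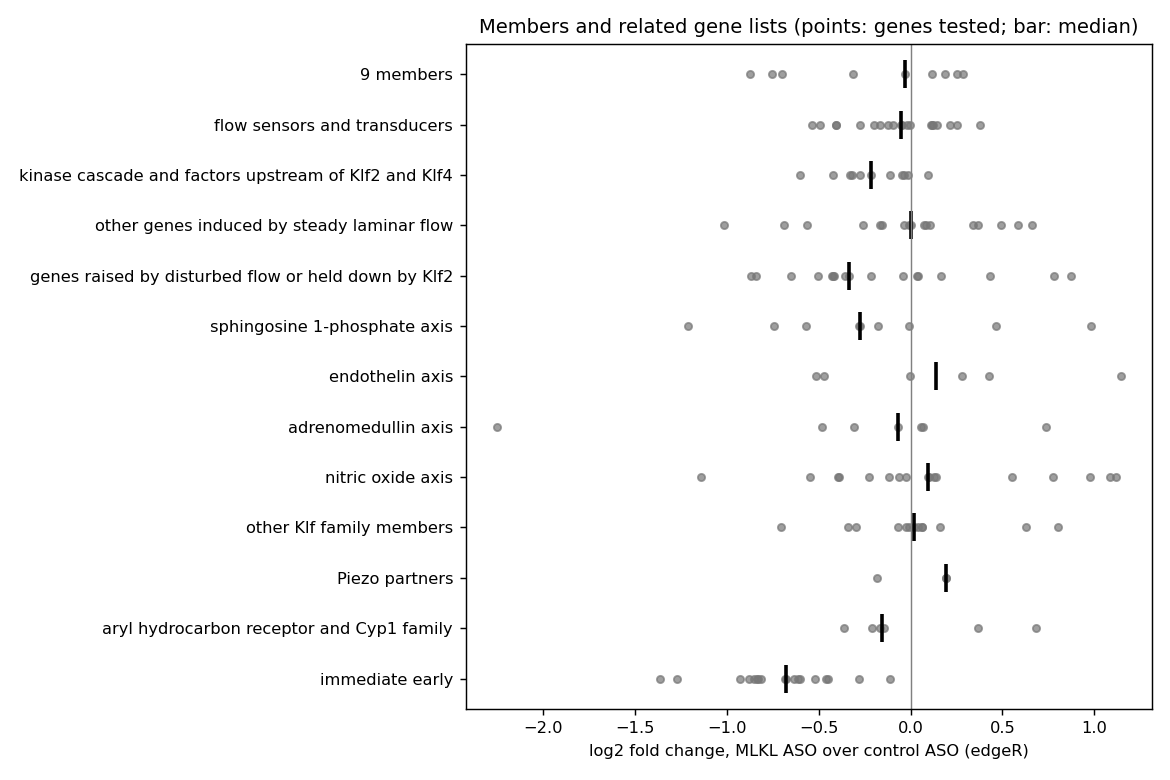
Log2 fold change in MLKL ASO over control ASO mice (horizontal axis, edgeR) of the 9 genes, of 11 related lists and of the immediate early list, with a point per gene tested and a bar at the median of each list. The 9 genes lie on both sides of 0 with a median of -0.03, whereas all 18 immediate early genes lie below 0.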

How the data were processed

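Bulk RNA sequencing libraries of spleen endothelial cells from 6 mice were compared, 3 with the MLKL ASO and 3 with the control ASO, grouped by sample title. Per the labels' protocols, the library kit kept the strand of mRNA. Per the submitters' processing notes, the tools were fastp 0.20.1, Salmon 1.3.0 and DESeq2; no source used here names the build or annotation. The authors deposited estimated counts per gene symbol, of which 69.3% are not whole numbers, and a DESeq2 table. Per the file headers, that table holds a mean signal, a log2 fold change with its standard error, a Wald score, a p-value and an adjusted p-value. Its direction was settled from the data (Pearson r of 0.978 across 19724 genes with the fold changes computed here, MLKL ASO over control ASO; genes are not replicates).

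Estimated counts were rounded, then tested by edgeR 4.0.16 under R 4.3.3 (default filter, TMM, glmQLFit and glmQLFTest, two-sided, Benjamini-Hochberg over 19741 genes). The 4 rows with a number for a symbol, at most 0.00173% of a library, were left out. Log2 CPM used a prior count of 2. Alternatives were other scalings and filters, a robust fit, DESeq2 1.42.0, limma 3.58.1 (voom with sample weights), covariates and leaving out each mouse. The fits were tested on simulated data. Named genes are the 9 members, Mlkl, up to 2 genes with the smallest p per related list, 10 genes named whatever their result and the 3 genes most like each member; some of these are not printed, and 1 related list is not reported here. The labels do not say that mice came from separate litters or cages. The members and lists were chosen with earlier results of these data known.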

Additional observations from a re-analysis of the deposited data

How the results depend on the processing

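No paired analysis was possible because the groups share no mouse number. Of the 9 members, 0 were called under any of the 17 alternatives, and Edn1 and Piezo1 kept their sign in all 17. Over all genes, 2 were called, and 4 with upper quartile scaling, 9 with library totals only, 24 with limma-voom, 515 with DESeq2, 137 with the pan-endothelial covariate, 0 with the T and B cell covariate, 0 with the immediate early covariate and 0 to 19 with a mouse left out (19 without mouse 1608). Of the genes in related lists 0 were called, and 5 with DESeq2. Relative to endothelial genes, the groups of 2 members did not overlap, of 4 relative to sinusoidal markers, and of 2 to 5 with a mouse left out (5 without mouse 1601). The share of all genes without overlap was 14.0% to 33.9% with a mouse left out (33.9% without mouse 1601), and relative to sinusoidal markers 20.8% were lower. Signs turned as follows, none past the threshold; the cause was not tested. Nos3 was at 0.24 with limma-voom and 0.21 with the pan-endothelial covariate. With the T and B cell covariate Klf4 was at -0.068 and S1pr1 at -0.064. With the immediate early covariate Klf2 was at 0.093, Nos3 at 1.5, Adm at 0.42, Cyp1b1 at -1.64 and Gpr4 at 0.086. With a mouse left out Nos3 ran from -0.33 to 0.59 and Cyp1b1 from -0.35 to 0.64. With 3 mice a group and intervals as wide as those of Nos3 and Cyp1b1, changes below about 2-fold in these genes were not detectable.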
